A study of Mus musculus with 20 samples.

Results

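The genes of fibroblast matrix and identity considered here were Col1a1, Col1a2, Col3a1, Col5a2, Fn1, Postn, Vim, Thy1, Cdh2 and Tgfb1. They were chosen by name, with earlier results of these data known, and are 10 of the 21911 protein-coding genes with a symbol in the annotation. For each gene, H3K27me3 peaks within 5 kb of a transcription start site (TSS) were taken from 10 peak lists, and KLF4 peaks and JMJD3 positions were taken from the gene and 50 kb on each side.

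Chromatin immunoprecipitation with sequencing (ChIP-seq) had been done on mouse embryonic fibroblasts (MEFs) and on MEFs transduced with Oct4, Sox2, Klf4 and c-Myc (OSKM), the factors that turn somatic cells into induced pluripotent stem cells. H3K27me3 was profiled in untransduced MEFs (day 0) and at days 5 and 10 of reprogramming in Jmjd3+/+ (WT) and Jmjd3-/- (KO) cells, with a FLAG control vector or with overexpressed Jmjd3, called JMJD3 below. KLF4 was profiled in WT cells of day 5 carrying FLAG or JMJD3, and FLAG-tagged JMJD3 itself was profiled at day 5 in WT cells with OSKM or with OSlowKM, a mixture with a low dose of the Klf4 virus. The comparisons addressed how H3K27me3 changed when JMJD3 was overexpressed, and where KLF4 and JMJD3 were bound.

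WT cells carried the strain label C57BL/6J-OG2, an Oct4-GFP reporter strain, and KO cells the label C57Bl6J, so genotype and strain label cannot be told apart. KO cells given JMJD3 lacked the endogenous enzyme and carried the overexpressed enzyme. All reprogramming cells were grown in medium with vitamin C after infection, the labels name lentivirus where the protocol names retrovirus, and the harvested dishes were mixed populations rather than sorted cells. Each group had 1 library, so there was no replicate check, no test of a difference between lists was run, and the counts below describe these libraries. A called peak gives presence and not the amount of the mark, and no expression was measured here. The knockout of Kdm6b could not be checked from peak lists, which held an H3K27me3 peak in that gene in 3 of the 10 lists, all from cells with JMJD3.

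Fibroblasts secrete fibrillar collagens and adhesive glycoproteins that form the connective tissue matrix, and they are recognised by mesenchymal genes such as vimentin, Thy1 and N-cadherin. During reprogramming these genes are known to be switched off early while epithelial genes are switched on. H3K27me3 is deposited by the polycomb complex PRC2, marks repressed genes, is found mostly at CpG-rich promoters, and is removed by JMJD3 (encoded by Kdm6b) and UTX.

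Thy1 was the only one of the 10 genes with an H3K27me3 peak in a MEF list, where most of all genes had none either. At day 5 the count stayed at 0 or 1 gene, Thy1 in each case. At day 10 peaks were listed at Thy1 (in KO cells only), Cdh2 and Tgfb1 and, in the KO library with JMJD3, also at Col1a1 and Postn, each of them in that list alone. No list held a peak this near to Col1a2, Col3a1, Col5a2, Fn1 or Vim.

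In WT MEFs 1 of the 10 genes had a peak, against 14.6% of all genes, and in KO MEFs none did, against 10.3%. At day 5 the count was 1 with FLAG in WT cells (14.7% of all genes), 0 with JMJD3 in WT cells (11%), 1 with FLAG in KO cells (13.7%) and 1 with JMJD3 in KO cells (13%). A count of 0 or 1 in 10 is close to these shares and is no result about the members. At day 10 the count was 2 with FLAG in WT cells (12.1%), 1 with JMJD3 in WT cells (8.27%), 2 with FLAG in KO cells (12.8%) and 5 with JMJD3 in KO cells (11.7%). The last was the highest of the 10 lists, but it fell to 3 with the 3045 best peaks of each list and to 2 with the better-scoring 50%, where WT day 10 cells with FLAG also had 2. List lengths ranged from 3045 peaks in WT day 10 cells with JMJD3 to 6954 in WT MEFs.

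**Figure D1:**
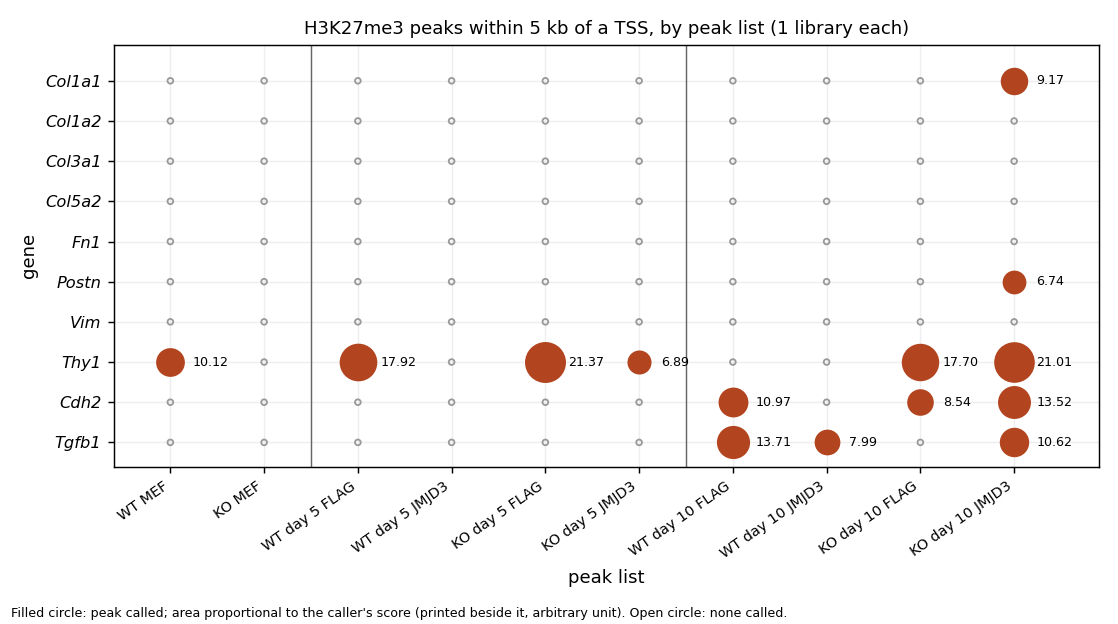
H3K27me3 peaks at most 5 kb from a TSS, for each of the 10 genes (vertical) in each of the 10 peak lists (horizontal, 1 library each), with circle area proportional to the peak caller's score, in arbitrary units. Thy1 has filled circles in 6 lists, Cdh2 and Tgfb1 in 3 day 10 lists each, Col1a1 and Postn in 1 list, and the other 5 genes in none.

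Pooling genotypes, 1 of the 10 genes had a peak in either MEF list (15.5% of all genes), 1 in either day 5 FLAG list (16.3%) and 3 in either day 10 FLAG list (15%). The share of all genes was almost flat over these stages. Genes without a peak in either MEF list and with a peak in at least 1 of the 8 reprogramming lists numbered 4 of 10 (Col1a1, Postn, Cdh2 and Tgfb1), against 6.96% of all genes. This count depends on the limits, since Postn had a peak in WT MEFs when 10 kb to the TSS were allowed, and under either score limit Col1a1 and Postn left it and Thy1 entered it, giving Thy1, Cdh2 and Tgfb1.

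Compared with MEFs of the same genotype, the FLAG cells of WT day 5 gained a peak at 0 of the 10 genes (3.35% of all genes) and lost one at 0 (3.24%). By WT day 10 with FLAG the peak was gained at 2 genes, Cdh2 and Tgfb1 (2.86%), and lost at 1, Thy1 (5.34%). In KO cells with FLAG, day 5 brought a gain at 1 gene, Thy1 (4.95%), and no loss (1.56%). KO day 10 brought gains at 2 genes, Thy1 and Cdh2 (4.94%), and no loss (2.41%). Cdh2 was thus listed as gained by day 10 in both genotypes, and Thy1 as lost in WT and gained in KO cells. When each list was limited to its better-scoring 50% or to its 3045 best peaks, the Cdh2 peak of KO cells with FLAG and the Thy1 peak of WT MEFs were no longer called, so that the KO gain of Cdh2 and the WT loss of Thy1 were absent. Thy1 then counted as a WT gain from MEFs to day 5. The WT gain of Cdh2 and the KO gain of Thy1 were still called under both score limits, but with 1 kb to the TSS Cdh2 had no peak in either genotype.

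Overexpressed JMJD3 was compared with FLAG at the same day and genotype. At day 5 in WT cells no member gained a peak (0.954% of all genes) and Thy1 lost its peak (4.68%). At day 5 in KO cells no member gained (2.13%) or lost (2.79%) a peak. At day 10 in WT cells none gained a peak (1.15%) and Cdh2 lost its peak (5.01%). At day 10 in KO cells 3 genes, Col1a1, Postn and Tgfb1, gained a peak (2.11%) and none lost one (3.21%). With the 3045 best-scoring peaks of each list the Tgfb1 gain was still called, those of Col1a1 and Postn were not, and Cdh2, which KO cells with FLAG then lacked, was called as a further gain. With the better-scoring 50% none of the 3 was called and Cdh2 was again called as a gain. Under both of these limits Thy1 was also lost with JMJD3 in KO cells at day 5, as in WT cells, and with the better-scoring 50% WT day 10 cells went from 2 genes with FLAG to 0 with JMJD3. With 1 kb to the TSS, WT day 10 cells had Tgfb1 alone with either vector, so the Cdh2 loss was absent.

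Thy1 encodes a glycosylphosphatidylinositol-anchored surface glycoprotein used to identify fibroblasts (chr9:44043384-44048579, plus strand, mm10). Its peak score, in the caller's arbitrary units, was 10.12 in WT MEFs, 17.92 in WT day 5 cells with FLAG, 21.37 in KO day 5 cells with FLAG, 6.89 in KO day 5 cells with JMJD3, 17.7 in KO day 10 cells with FLAG and 21.01 in KO day 10 cells with JMJD3. No peak was listed in KO MEFs, in either WT day 10 list or in WT day 5 cells with JMJD3. The midpoints lay 289 to 887 bp inside the gene, over an intron or an untranslated part of an exon. Ranked among all peaks of the same list, the score stood at the 41.8th percentile in WT MEFs, the 61.3rd in WT day 5 cells and the 71.5th in KO day 5 cells with FLAG, and at the 6.74th in KO day 5 cells with JMJD3. The last was therefore among the weakest calls of its list, whereas the KO day 10 peaks stood at the 75.1st percentile with FLAG and the 76.3rd with JMJD3.

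Cdh2 encodes N-cadherin, the adhesion molecule that mesenchymal cells carry in place of E-cadherin (chr18:16588877-16809246, minus strand). It had no peak in the MEF or day 5 lists, where the nearest peak was 909.7 to 910.3 kb away. At day 10 the peak score was 10.97 in WT cells with FLAG, 8.54 in KO cells with FLAG and 13.52 in KO cells with JMJD3. WT cells with JMJD3 again had no peak nearer than 909.9 kb. The 3 peaks lay in the same first part of the gene, with midpoints 2052 to 2635 bp inside it in an intron. Each of them overlapped the KLF4 peak that had been called at day 5 in JMJD3 cells, 2.37 kb inside the gene, and the JMJD3 position at 2.45 kb called with OSKM. No other H3K27me3 peak at a member's TSS overlapped a KLF4 peak or a JMJD3 position.

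Tgfb1 encodes transforming growth factor beta 1, the cytokine that drives collagen synthesis and the mesenchymal state (chr7:25687002-25705077, plus strand). Its peak score at day 10 was 13.71 in WT cells with FLAG, 7.99 in WT cells with JMJD3 and 10.62 in KO cells with JMJD3, with midpoints 877 to 1351 bp inside the gene over a coding exon or an intron. KO day 10 cells with FLAG and all 6 earlier lists had no peak there. A separate peak 11.7 to 12.2 kb upstream of Tgfb1, at the TSS of the neighbouring gene Tmem91, was listed in 9 of the 10 lists at scores of 14.19 to 34.59 and was absent in WT day 10 cells with JMJD3. The mark around Tgfb1 thus stood at the neighbour in MEFs, and a further peak inside Tgfb1 was listed at day 10 only.

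Postn encodes periostin, a matricellular protein that binds collagen (chr3:54361109-54391037, plus strand). Its only peak within 5 kb was in KO day 10 cells with JMJD3, centred 1244 bp upstream, with a score of 6.74 that stood at the 3.72nd percentile of its list. A peak farther upstream, 9.1 to 9.5 kb from the start, was listed in WT MEFs with a score of 7.05, in WT day 5 cells with FLAG (10.02) and JMJD3 (8.37), and in KO day 5 cells with FLAG (11.94) and JMJD3 (14). KO MEFs had instead a peak 16.5 kb upstream with a score of 9.05, which was also listed in KO day 5 cells with FLAG (6.78). In the other 3 day 10 lists the nearest peak was 203.7 to 203.8 kb away. The upstream region of Postn therefore held a peak in all MEF and day 5 lists and in none of the day 10 lists but that of KO cells with JMJD3, where the peak lay nearer to the TSS.

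Among the members just inside the 5 kb limit, the most distant peaks were those of Cdh2 (2.13 kb from the start to the nearest peak edge, KO day 10 FLAG) and Col1a1 (2 kb). Just outside it lay the Postn peaks, with edges 8.63 to 9.01 kb from the start.

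The 4 collagen genes encode chains of the fibrillar collagens of types I, III and V. Col1a1 (chr11:94936224-94953042, plus strand) had a peak only in KO day 10 cells with JMJD3, centred 2494 bp inside the gene in an intron, with a score of 9.17 at the 36.5th percentile of the list. Its nearest peak lay 184.5 to 185.4 kb away in MEFs and 53.2 to 54 kb upstream in the other 7 reprogramming lists. Col1a2 (chr6:4504814-4541544, plus strand) had its nearest peak 134.1 to 741 kb away. Col3a1 (chr1:45311538-45349706, plus strand) and its neighbour Col5a2 (chr1:45374321-45503282, minus strand), whose surroundings overlap, had none nearer than 575.7 and 384 kb. The distance reached 2357.4 kb for Col3a1 and 2549.1 kb for Col5a2 in KO day 10 cells with JMJD3.

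Fn1 encodes fibronectin, the adhesive glycoprotein on which collagen fibrils assemble (chr1:71585520-71653200, minus strand), and its nearest peak was 570.7 to 1171.3 kb away. Vim encodes the intermediate filament protein vimentin (chr2:13573927-13582826, plus strand), and its nearest peak was 139.9 to 218.9 kb away in the 10 lists. Over the 10 genes the median distance to the nearest peak was 202 kb in WT MEFs, against 109 kb for all genes, and 226 against 177 kb in KO MEFs. The members were farther from the mark than the median gene in these and in 7 of the 8 reprogramming lists, with 440 against 169 kb in WT day 5 cells with JMJD3 as an example. In KO day 10 cells with JMJD3 the order was the other way, 110 against 168 kb.

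The members differed in promoter composition, a property tied to polycomb marks at CpG-rich promoters. The ratio of observed to expected CpG within 500 bp of the gene start was 0.178 for Col3a1, 0.211 for Col1a2, 0.214 for Postn, 0.3 for Col1a1, 0.331 for Col5a2, 0.431 for Thy1, 0.529 for Vim, 0.688 for Fn1, 0.696 for Tgfb1 and 0.869 for Cdh2. The median of the 10 was 0.381, against 0.552 for 21904 genes. Ranking all genes by this ratio into a low, a middle and a high class of equal size placed 4 members in the low class, 5 in the middle and Cdh2 in the high class. Of all low-class genes 6.77% had a peak in WT MEFs, against 21.9% of the middle class and 15.2% of the high class, and the corresponding values in KO day 10 cells with JMJD3 were 4.74, 18.2 and 12.2%. Thy1, Tgfb1 and Cdh2, the members with peaks in 3 or more lists, were in the middle or high class, but so were Fn1, Vim and Col5a2, which had none.

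**Figure D2:**
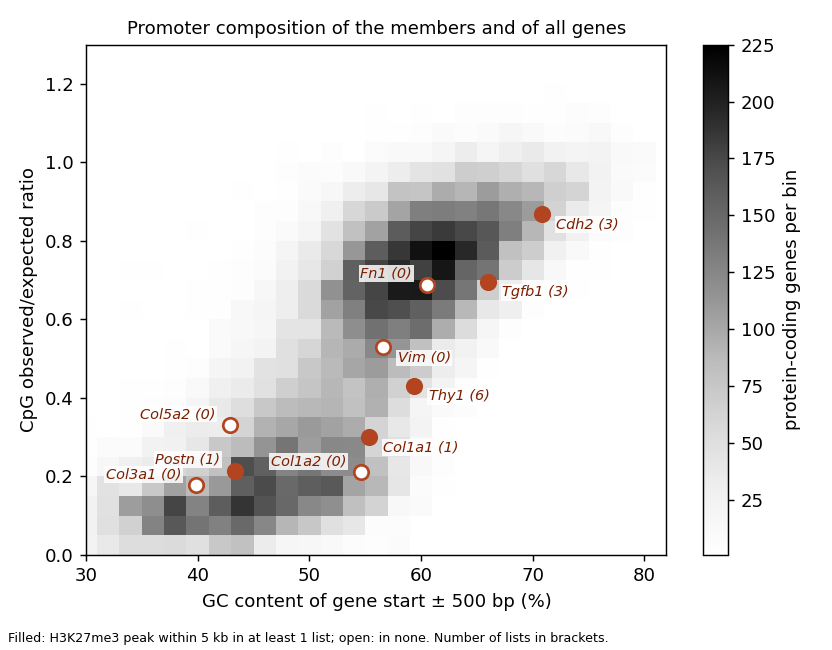
CpG observed/expected ratio against GC content (%) of the gene start ± 500 bp, with all protein-coding genes as a grey density (genes per bin) and the 10 members as circles, filled where an H3K27me3 peak was listed within 5 kb and followed by the number of lists. Filled circles lie from Postn at a ratio of 0.214 to Cdh2 at 0.869, and the open circle of Fn1 lies beside Tgfb1.

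The 200 bases before the start of 3 members are shown because they contrast genes with an H3K27me3 peak near the start in 3 or more lists (Tgfb1, Thy1) with one that had none (Col3a1) (mm10 coordinates, plus strand, 5′ to 3′, CpG dinucleotides in capitals). The Tgfb1 peaks themselves lay inside the gene and not over these bases. Tgfb1 has 16 CpGs there, Thy1 has 6 and Col3a1 has 0.
Tgfb1 (chr7:25686802-25687001): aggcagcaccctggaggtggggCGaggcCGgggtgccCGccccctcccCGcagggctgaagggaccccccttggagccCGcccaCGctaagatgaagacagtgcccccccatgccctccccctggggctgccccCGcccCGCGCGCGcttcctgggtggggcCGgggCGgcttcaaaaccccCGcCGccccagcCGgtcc
Thy1 (chr9:44043184-44043383): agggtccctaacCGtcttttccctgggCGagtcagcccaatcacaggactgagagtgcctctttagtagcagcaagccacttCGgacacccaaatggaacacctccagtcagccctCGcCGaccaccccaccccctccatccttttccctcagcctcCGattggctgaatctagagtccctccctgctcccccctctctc
Col3a1 (chr1:45311338-45311537): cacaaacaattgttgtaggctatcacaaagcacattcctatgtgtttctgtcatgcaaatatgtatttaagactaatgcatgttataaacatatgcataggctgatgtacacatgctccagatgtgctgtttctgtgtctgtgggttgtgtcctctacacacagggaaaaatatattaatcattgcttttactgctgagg

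Other genes of the fibroblast and matrix programme were counted from a list of 44 further collagens, matrix proteins, matrix enzymes, receptors and surface genes. None of the 44 had a peak in either MEF list. At day 5 there were 4 of 44 (9.09%) in each of the 4 lists, and at day 10 there were 6 with FLAG and 5 with JMJD3 in WT cells, and 6 with FLAG and 7 with JMJD3 in KO cells, that is 11.4 to 15.9%. The 44 genes thus had no peak in MEFs and were close to the share of all genes at day 10. Of the 44, 35 had no peak in any list, as had 5 of the 10 members and 77.6% of all genes.

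Lox and Loxl1, which encode enzymes that cross-link collagen and elastin, and Pdgfra, the receptor for platelet-derived growth factor on mesenchymal cells, had a peak in all 8 reprogramming lists and in neither MEF list. Only 0.274% of all genes, 60 genes, had this pattern, and 0 of the 10 members did. Col12a1, a collagen associated with fibrils, had a peak in 5 lists. Col5a1, the partner chain of Col5a2 in type V collagen, had exactly the list pattern of Tgfb1, which 4 other genes in all shared. Fbn1, encoding fibrillin, had the pattern of Col1a1 and Postn, each of which had 88 other genes with its pattern. The pattern of Thy1 was shared by 7 other genes and that of Cdh2 by 16.

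The direction of this list differed from that of epithelial genes. Both lists were chosen with earlier results of these data known, so the contrast is a description and not independent support. Peaks were listed at 9 of 11 epithelial genes in WT MEFs and at 8 in those of KO genotype. By day 10 this was 6 with FLAG in either genotype, 2 with JMJD3 in WT cells and 4 with JMJD3 in KO cells. Of 9 mesenchymal transcription factors, 1 had a peak in each MEF list. At day 5 the count was 3 with FLAG and 1 with JMJD3 in WT cells, and 1 with either vector in KO cells. At day 10 it was 1 with FLAG and 2 with JMJD3 in WT cells (12.1 and 8.27% of all genes). In KO cells of day 10 it was 4 with FLAG and 3 with JMJD3 (12.8 and 11.7%). The MEF lists thus held peaks at most of the epithelial genes and at 0 of the 44 further fibroblast and matrix genes, beside 14.6 and 10.3% of all genes in WT and KO MEFs, while the count for the 10 members was near these shares.

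**Figure D3:**
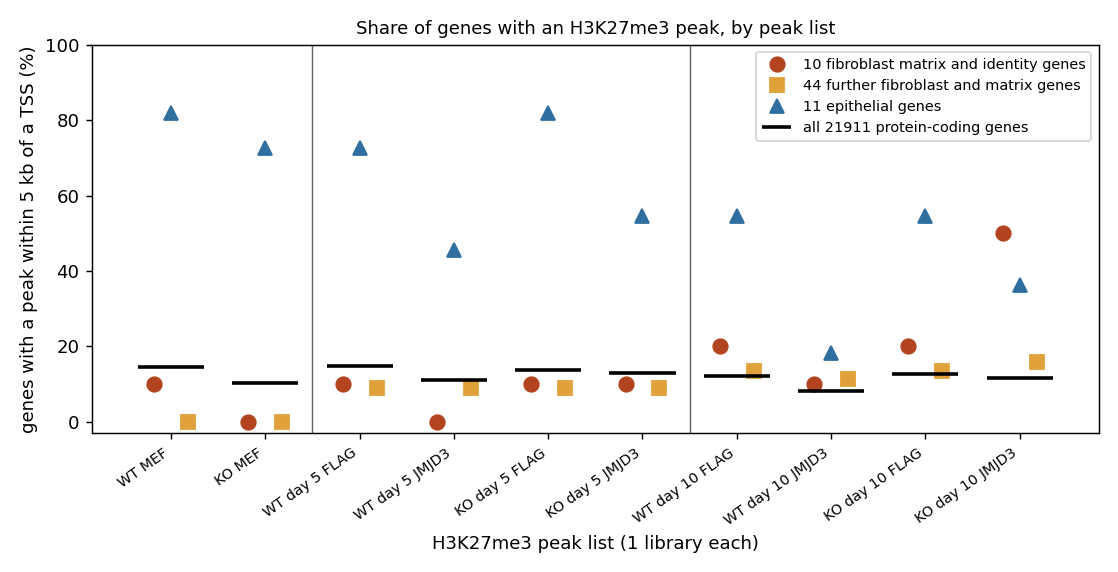
Share of genes (%) whose TSS has an H3K27me3 peak at most 5 kb away in each of the 10 peak lists (1 library each), for the 10 members, 44 further fibroblast and matrix genes and 11 epithelial genes, with black bars for all 21911 protein-coding genes. The 44 further genes go from 0 in both MEF lists to between 11.4 and 15.9% at day 10, the epithelial genes fall from 81.8 and 72.7% to between 18.2 and 54.5%, and the members reach 50% in KO day 10 cells with JMJD3.

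KLF4, and JMJD3 with OSKM, lay near most genes at day 5, members or not. In FLAG cells 7 of the 10 genes had a KLF4 peak in the gene or the 50 kb on either side (59.5% of all genes), and in JMJD3 cells 8 did (67.1%). JMJD3 positions lay there for 8 genes with OSKM (55.6%) and for 5 with low KLF4 (14.1%). With low KLF4 the other gene lists were also above the share of all genes. They had 27.3% of the 44 further genes, 44.4% of the 9 mesenchymal transcription factors and 27.3% of the 11 epithelial genes. The low-KLF4 list was short, with 2284 positions against 14067, and the members that kept a position in it were Col3a1, Fn1, Vim, Cdh2 and Tgfb1. Postn was the only member with neither KLF4 nor JMJD3 in any of the 4 lists, and with 100 kb on each side it had a JMJD3 position with OSKM.

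The 4 lists held 20 and 24 KLF4 peaks (FLAG and JMJD3) and 22 and 7 JMJD3 positions (OSKM and low KLF4) in the members' surroundings. Per megabase this was 13.4 and 16 KLF4 peaks and 14.7 and 4.68 JMJD3 positions over the 1.5 Mb of the members, against 5.77, 7.85, 6.58 and 1.01 over the surroundings of all genes. Many sites belonged to neighbours. The nearest TSS was that of the member for 9 of 20 and 14 of 24 KLF4 peaks, and for 13 of 22 and 6 of 7 JMJD3 positions. All sites around Thy1 were nearest to the TSS of Usp2 or Mfrp, and the only KLF4 site nearest to the TSS of Tgfb1 was the one 2.27 to 2.32 kb inside the gene, present with both vectors.

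**Figure D4:**
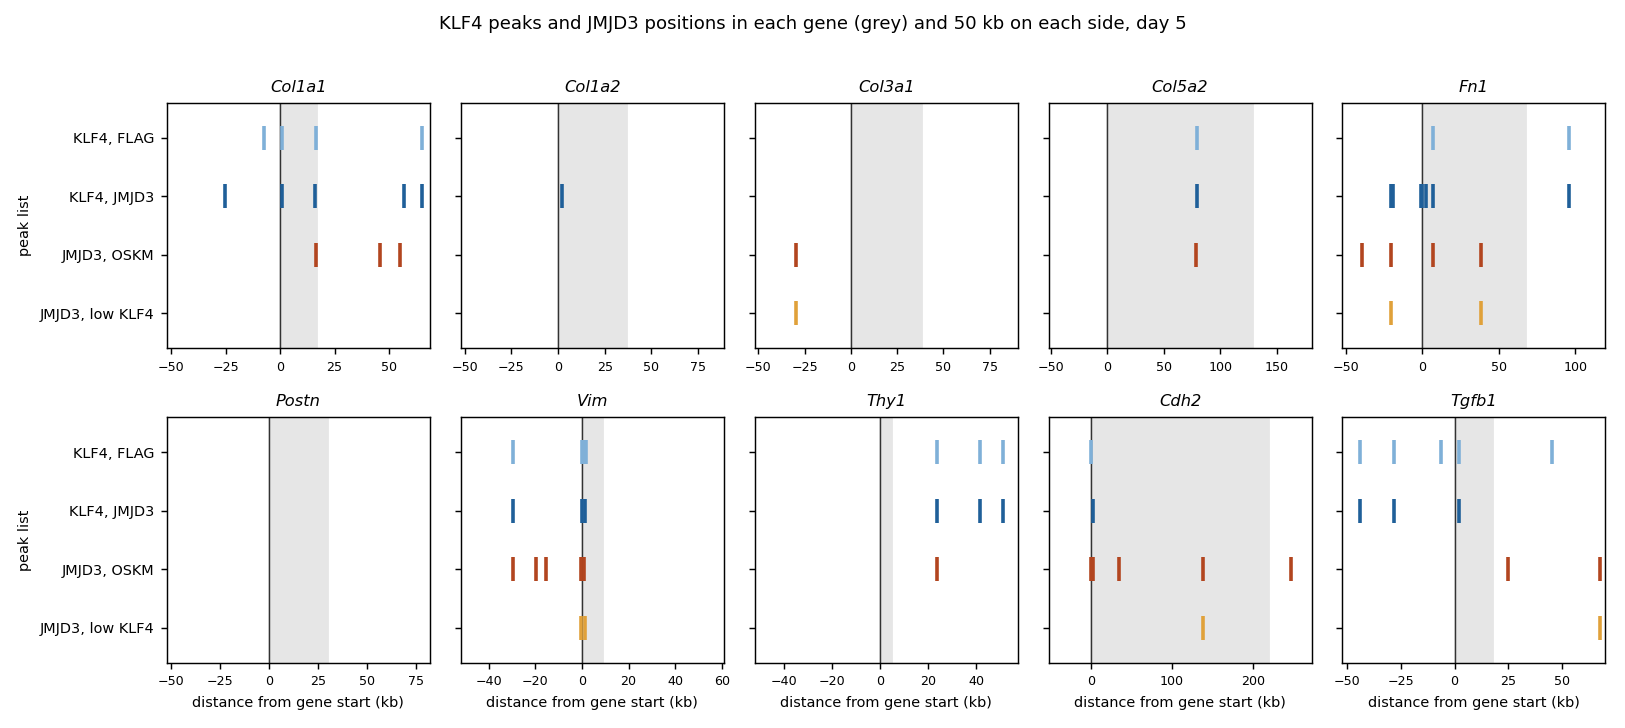
KLF4 peaks (FLAG and JMJD3 cells) and JMJD3 positions (OSKM and low KLF4), all of day 5, as ticks at their distance from the gene start in kb along the direction of transcription, in panels of 1 gene each with the gene body in grey. Vim has ticks of all 4 lists at its start, Fn1 has more KLF4 ticks with JMJD3 (7) than with FLAG (2), from lists of 14391 and 10655 peaks, Col3a1 has JMJD3 ticks alone, and Postn has none.

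Vim held the most complete pair of sites. At its promoter, KLF4 peaks were centred 0.17 kb (FLAG) and 0.14 kb (JMJD3) upstream of the start, and JMJD3 positions lay 236 bp upstream with OSKM and 257 bp upstream with low KLF4. Within the first exon and intron, KLF4 peaks lay at 1.17 and 1.56 kb with FLAG and at 1.38 kb with JMJD3, and JMJD3 positions at 1.01 kb with OSKM and 1.38 kb with low KLF4. Both places were therefore listed in all 4 libraries, although the JMJD3 positions of the second were joined only by the 400 bp limit and not by one of 200 bp.

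Fn1 had 2 KLF4 peaks with FLAG and 7 with JMJD3, from lists of 10655 and 14391 peaks. The 2 shared peaks lay at 7 kb in an intron and at 96.1 kb, beside the TSS of Atic, and the 5 listed with JMJD3 alone lay 58 and 545 bp upstream of the start, 2.36 kb inside it, and 19.3 and 20.6 kb upstream. JMJD3 positions lay at 7.07 and 38.3 kb inside the gene and 20.5 and 39.2 kb upstream with OSKM. With low KLF4 those at 38.2 kb and 20.4 kb upstream were still listed, within 400 bp of their OSKM counterparts, and those at 7.07 kb, on an intronic KLF4 peak, and 39.2 kb upstream, away from any KLF4 peak, were not.

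Among the collagens, Col1a1 had 4 KLF4 peaks with FLAG, 5 with JMJD3 and 3 JMJD3 positions, of which only the KLF4 peaks at -7.23, 0.89 and -25.1 kb were nearest to its own TSS. The peak at 0.89 kb, in an intron, was listed with both vectors. Col1a2 had a single KLF4 peak, 2.14 kb inside the gene with JMJD3. Col5a2 had 1 KLF4 peak with each vector, 79.1 kb inside the gene, with a JMJD3 position at 79 kb that was not listed with low KLF4. Col3a1 had no KLF4 peak, but a JMJD3 position upstream of the gene in both JMJD3 lists. Col1a1 and Col5a2 thus had KLF4 with both vectors and JMJD3 with OSKM, Col1a2 had KLF4 alone and Col3a1 had JMJD3 alone. With 100 kb on each side, Col1a2 also had a KLF4 peak with FLAG and a JMJD3 position with OSKM. Col3a1 then had KLF4 peaks with both vectors, because its window took in those inside Col5a2.

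Of the 22 JMJD3 positions with OSKM, 9 lay within 400 bp of a KLF4 peak of JMJD3 cells, or 40.9% (95% Wilson interval 23.3 to 61.3, counting error only), against 32.7% of the whole list. With a low-KLF4 position within 400 bp there were 7, or 31.8% (16.4 to 52.7), against 12.9% of the list. All 7 low-KLF4 positions had an OSKM position nearby, where 79.2% of that list did. Fn1 and Vim held 2 of these 7 each, and the intervals ignore that positions at the same gene are not independent. Of the 22 positions, 3 had both a KLF4 peak and a low-KLF4 position, 6 a KLF4 peak alone, 4 a low-KLF4 position alone and 9 neither. Of the 24 KLF4 peaks with JMJD3, 15 were near a FLAG peak, or 62.5% (42.7 to 78.8), beside 62.6% of the list.

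The 200 bp windows centred on 6 JMJD3 positions are shown because they lie outside untranslated regions, are nearest to the TSS of Col5a2, Fn1 or Vim and are shared with KLF4 or with low KLF4 (mm10 coordinates, plus strand, 5′ to 3′). Capitals mark matches to 5 fixed strings searched on both strands, KLF (GGGNGTGG), SOX (AACAATG or AACAAAG), OCT (ATGCAAAT), AP-1 (TGANTCA) and TEAD (GGAATG), and no matches overlapped in these windows. The names give the distance from the gene start.
Vim −0.24 kb (chr2:13573592-13573791): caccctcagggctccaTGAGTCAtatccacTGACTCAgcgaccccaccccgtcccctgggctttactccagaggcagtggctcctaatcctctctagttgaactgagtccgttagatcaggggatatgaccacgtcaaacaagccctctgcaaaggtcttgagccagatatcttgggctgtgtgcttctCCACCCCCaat
Vim 1.01 kb (chr2:13574834-13575033): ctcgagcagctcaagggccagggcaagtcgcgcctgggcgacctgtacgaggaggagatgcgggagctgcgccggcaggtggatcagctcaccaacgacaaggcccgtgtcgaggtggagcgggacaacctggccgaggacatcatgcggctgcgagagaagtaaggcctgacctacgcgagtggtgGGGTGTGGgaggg
Fn1 −20.5 kb (chr1:71673574-71673773): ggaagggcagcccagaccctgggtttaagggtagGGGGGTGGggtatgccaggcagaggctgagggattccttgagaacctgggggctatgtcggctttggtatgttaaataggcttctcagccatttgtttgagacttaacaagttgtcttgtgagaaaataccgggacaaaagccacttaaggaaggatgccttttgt
Fn1 38.3 kb (chr1:71614777-71614976): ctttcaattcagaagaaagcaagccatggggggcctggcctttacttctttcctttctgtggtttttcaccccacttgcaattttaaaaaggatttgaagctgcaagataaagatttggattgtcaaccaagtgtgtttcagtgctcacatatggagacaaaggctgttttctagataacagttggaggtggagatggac
Fn1 7.07 kb (chr1:71646031-71646230): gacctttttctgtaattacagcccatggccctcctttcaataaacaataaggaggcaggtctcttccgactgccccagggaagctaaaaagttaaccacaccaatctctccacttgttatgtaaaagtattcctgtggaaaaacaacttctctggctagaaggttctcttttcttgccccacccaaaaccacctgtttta
Col5a2 79.0 kb (chr1:45424158-45424357): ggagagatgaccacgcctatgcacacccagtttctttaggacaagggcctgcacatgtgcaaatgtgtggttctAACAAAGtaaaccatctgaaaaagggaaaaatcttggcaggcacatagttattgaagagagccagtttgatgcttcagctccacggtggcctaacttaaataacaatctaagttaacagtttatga

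The Vim promoter window held 2 AP-1 strings and a KLF string, and the Vim window at 1.01 kb and the Fn1 window upstream held a KLF string each. The Col5a2 window held a SOX string. The window of Fn1 at 38.3 kb, which was listed with low KLF4 and had no KLF4 peak, held none of the 5 strings, and neither did Fn1 at 7.07 kb, which had a KLF4 peak. Of all windows centred on JMJD3 positions with OSKM, 14.6% held a KLF string, 18.7% a SOX string, 3.83% an OCT string, 11.4% an AP-1 string and 12.4% a TEAD string. The KLF string was present in 9 of 20 and 10 of 24 KLF4 windows of the members, beside 35.5 and 33.6% of all windows of these lists, and in 4 of 22 JMJD3 windows with OSKM. A match is a description of letters and not a binding site.

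Cdh2 and Tgfb1 carried JMJD3 at other places. Cdh2 had JMJD3 positions with OSKM at 0.39, 2.45, 34.4, 138.9 and 247.4 kb from its start, and only that at 138.9 kb, 271 bp from an alternative TSS, was also listed with low KLF4. KLF4 was listed 0.22 kb upstream with FLAG and 2.37 kb inside the gene with JMJD3, so no KLF4 peak was shared between the vectors. The JMJD3 positions of Tgfb1, at 24.9 and 67.6 kb, lay in the neighbours Ccdc97 and Hnrnpul1, the second of them also with low KLF4. Neither gene thus had a JMJD3 position within 1 kb of its start in both JMJD3 lists, whereas Vim did.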

How the data were processed

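Peak lists of 14 of the 20 libraries were used (10 H3K27me3, 2 KLF4, 2 FLAG-JMJD3), and the other 6 were not analysed here. The authors aligned reads to mm10 with bowtie2 and called the peaks of each library separately, using DFilter (H3K27me3) or MACS2 (KLF4 and JMJD3). The authors normalised mouse H3K27me3 reads to the reads of a Drosophila spike-in. Whether the peak calls used the normalised reads is not given in the sources used here. Each deposited H3K27me3 interval spans 1000 bp and has a caller score on an unstated scale, which served here for ranks within a list. KLF4 intervals and JMJD3 positions of 1 bp were deposited as coordinates without a value. Read depth was not used here, and a deeper library can hold more peaks.

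Gene models and TSSs came from the basic transcripts of GENCODE M21 (21911 protein-coding genes), and sequence came from GRCm38.p6, the build of mm10. A gene was called where a peak overlapped the 5 kb around a TSS, or the gene and 50 kb on each side. Sites within 400 bp were shared. Shares carry Wilson intervals. The members and lists were chosen with earlier results of these data known. All 10 members were named; genes of the wider list of 44 were named where they had a peak in at least 5 of the 10 lists or the pattern of a member with a peak, and the epithelial and transcription factor lists were only counted. Alternatives varied the distances, the set of TSSs, the score limit and the list length. Overlaps were checked on simulated peaks and against bedtools 2.31.1. Python 3.11.15, pandas 2.3.3 and pysam 0.24.0 were used. The sequence window of 1 JMJD3 position is not reported here.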

Additional observations from a re-analysis of the deposited data

Results flagged for a closer look

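The effect of JMJD3 on the number of members with an H3K27me3 peak at day 10 had opposite signs in the genotypes, with a change of -1 gene in WT cells (Cdh2) and of 3 genes in KO cells (Col1a1, Postn and Tgfb1). Over all genes the number with a peak was lower with JMJD3 in both genotypes, 1813 against 2659 in WT cells and 2565 against 2806 in KO cells. Thy1 changed by -1 from MEFs to day 10 with FLAG in WT cells, where its peak was lost, and by 1 in KO cells, where it was gained. With the better-scoring 50% or the 3045 best peaks of each list, WT MEFs had no Thy1 peak, so the WT change was 0 and the opposite signs were gone. For the number of members at day 10, the first limit gave 2 genes with FLAG and 0 with JMJD3 in WT cells, and 1 and 2 in KO cells, and the second gave 2 and 1 in WT cells and 1 and 3 in KO cells. With 1 kb to the TSS it was 1 with either vector in WT cells, so the opposite signs were gone there too. Each value rests on 1 library per group, and the difference between genotypes was not tested.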

How the results depend on the processing

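Of 80 alternatives, 60 were labelled as leaving a count or share in place and 20 as moving it. The latter were 17 for H3K27me3, 3 for KLF4 or JMJD3 and 0 for shared sites. This label allowed some change, and no alternative left a KLF4 or JMJD3 count exactly equal. For example, the 7 genes with KLF4 in FLAG cells became 5 to 9 without being labelled as moved. With 10 kb to the TSS, Postn was added, giving 2 genes in WT MEFs, 2 in WT and 2 in KO day 5 cells with FLAG, 1 in WT and 2 in KO day 5 cells with JMJD3. With 1 kb, WT day 10 cells with FLAG had 1 gene (Tgfb1), KO day 10 cells with FLAG 1 (Thy1) and with JMJD3 3 (Postn, Thy1 and Tgfb1). Keeping the better-scoring 50% of peaks left 0 genes in WT MEFs, in KO day 5 and in WT day 10 cells with JMJD3, 1 in KO day 10 cells with FLAG and 2 with JMJD3 (Thy1 and Cdh2). Cutting each list to its 3045 best peaks gave 0 genes in WT MEFs and in KO day 5 cells with JMJD3, 1 in KO day 10 cells with FLAG and 3 with JMJD3 (Thy1, Cdh2 and Tgfb1). The Col1a1 and Postn peaks were thus absent under both score limits, and the KO day 10 list with JMJD3 gave 2 to 5 genes in all. The wider 50% of KLF4 peaks with JMJD3 left 5 genes, requiring the nearest TSS to be the member's left 5 genes with JMJD3 under OSKM, and 10 kb around the gene left 3 with low KLF4. With 100 kb around the gene, 9 genes had KLF4 with either vector, and 10 and 6 had JMJD3 with OSKM and low KLF4. The share of all genes at this width is not given here, so these counts are no result about the members. At this width the window of Col3a1 takes in the KLF4 peaks inside Col5a2, and that of Col5a2 the low-KLF4 position upstream of Col3a1. By replicate number, no paired analysis was possible because each group had 1 library, so that groups shared fewer than 2 replicate numbers. A fit across the matched FLAG and JMJD3 libraries was not run.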
